A study of Sus scrofa with 3 samples.

Results

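The miR-106b, miR-93 and miR-25 hairpins form 1 miRNA cluster, and its 6 mature arms were followed through pig liver development. Members were taken by name: every table row of a known miRNA whose hairpin, without species prefix and copy number, is miR-106b, miR-93 or miR-25. That gave 3 of 677 hairpin names, 6 of 978 arms and 42 of 3456 table rows over the 3 libraries. The libraries are small RNA libraries of liver from the Jinhua breed, all from males, at 3 stages: the embryo at day 90 of gestation (E90), weaning at day 30 after birth (P30d) and the adult at year 7 (P7y). The labels give no treatment. The labels name 3 pigs per stage but give 1 library per stage, without saying whether RNA was pooled, so each comparison sets single libraries against each other and has no replicate check.

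In mammals this cluster lies within an intron of MCM7, which encodes a subunit of the helicase that opens DNA at replication origins, and its transcription follows E2F factors that drive cells into the cell cycle. miR-106b and miR-93 belong to the same seed family as miR-17 and miR-20a of the miR-17-92 cluster, and miR-25 to that of miR-92a. In human cells miR-106b and miR-93 repress the cell cycle inhibitor CDKN1A, and miR-25 represses the death-promoting BCL2L11, so the cluster is best known from proliferating and tumour cells, liver tumours among them.

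The seed, bases 2 to 8 of a mature miRNA, does most of the target pairing, and these reads show which members share it. The representative read of each main arm at E90 is given 5′ to 3′ in the DNA alphabet of the tables, with the seed in capitals.
miR-106b-5p: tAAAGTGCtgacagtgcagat
miR-93-5p: cAAAGTGCtgttcgtgcaggtag
miR-25-3p: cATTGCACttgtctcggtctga
miR-106b-5p and miR-93-5p have the same seed and the same base at 16 of 21 positions counted from the first base, whereas miR-25-3p has another seed and the same base as miR-93-5p at 9 of 22. The miR-93-5p reads start 1 base before the monkey sequence that the tables use as the name's reference, and with that reference the seed letters would be shifted by 1.

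The other arms of the same hairpins were less abundant, except that miR-106b-3p exceeded miR-106b-5p at P7y (71.8 against 42.8 CPM). They are shown because the arm balance of each hairpin differed between stages.
miR-106b-3p: cCGCACTGtgggtacttgctgc
miR-93-3p: aCTGCTGAgctagcacttcccga
miR-25-5p: aGGCGGAGacttgggcaattgct
The hairpins to which the reads were matched show where the arms lie, with capitals for the representative reads of both arms in rows with no place on the genome. For miR-106b-5p that read is 1 base longer than the representative read over all rows, printed above. The hairpins come from cow for miR-106b and miR-25 and from spider monkey for miR-93, as the tables hold no pig hairpin of these names.
miR-106b: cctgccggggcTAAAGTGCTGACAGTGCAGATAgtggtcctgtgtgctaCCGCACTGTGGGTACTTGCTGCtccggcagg
miR-93: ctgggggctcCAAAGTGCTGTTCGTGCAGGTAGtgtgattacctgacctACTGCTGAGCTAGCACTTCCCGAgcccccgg
miR-25: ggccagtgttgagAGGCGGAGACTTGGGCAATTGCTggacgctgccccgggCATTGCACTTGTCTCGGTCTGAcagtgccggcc
The authors placed none of these hairpins on the Sscrofa10.2 genome, so no coordinates are given for them. All reads of miR-106b-3p and miR-25-5p, and between 99.4% and 100% of the reads of miR-93-5p, miR-93-3p and miR-25-3p in each library, were in rows with no place on the genome. miR-106b-5p was the exception. Of its reads 57.2% (E90), 57.5% (P30d) and 67.3% (P7y) were in rows that the authors had placed on other genomic sequence, and 70.8%, 70.3% and 81.6% of its reads carried a mismatch. The levels, ratios and arm balance of miR-106b-5p are therefore also given without those rows or without those reads. What the deposited mismatches were counted against was not checked. The representative read of miR-106b-5p equals the known cow sequence. It had 2536, 408 and 149 copies at E90, P30d and P7y, against 1800, 283 and 78 reads without a mismatch. The mismatch-free counts may therefore leave out reads identical to the known miR-106b-5p. In each library that representative read was in a row placed on other genomic sequence. Counts in rows with no place on the genome leave that row out as well, so neither count is a cleaner measure of miR-106b-5p.

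Known miRNAs had 9243601 reads in the E90 library, 3622993 in the P30d library and 9920207 in the P7y library, and levels are counts per 1000000 of these reads (CPM). A count of 0 allowed up to 0.325, 0.828 and 0.302 CPM, and all 6 arms were read in every library. Intervals are exact, at 95%, and cover counting error only. PCR copies are not independent molecules, so the true counting error may be larger. In whole liver, fewer cells of a type and less of a miRNA per cell cannot be told apart. Levels of different miRNAs also carry how readily each is ligated and amplified, which was not measured. The scale matters for P7y: TMM and DESeq2 scaling add 1.03 and 1.12 to every log2 ratio of P7y over P30d and 1.19 and 1.10 to every ratio of P7y over E90, against 0.16 and -0.02 for P30d over E90. Ratios between members and between arms of a hairpin do not depend on the scale.

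The cluster as a whole was most abundant in the embryo. Its 3 hairpins together held 5639 CPM at E90, 2647 CPM at P30d and 1916 CPM at P7y, which is 0.564%, 0.265% and 0.192% of known miRNA reads. A difference was called where it reached 2-fold and its interval excluded no change. By this rule the summed cluster was lower at P30d than at E90 (log2 ratio -1.09, interval -1.12 to -1.06) and lower at P7y than at E90 (-1.56, -1.58 to -1.53), but not called between P7y and P30d (-0.47, -0.50 to -0.43). Under TMM the 3 ratios were -0.93, -0.37 and 0.56, none of them called, and under DESeq2 -1.11, -0.46 and 0.65, given in the order P30d over E90, P7y over E90 and P7y over P30d, so the drop of the sum to P7y was not past 2-fold under either.

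**Figure D1:**
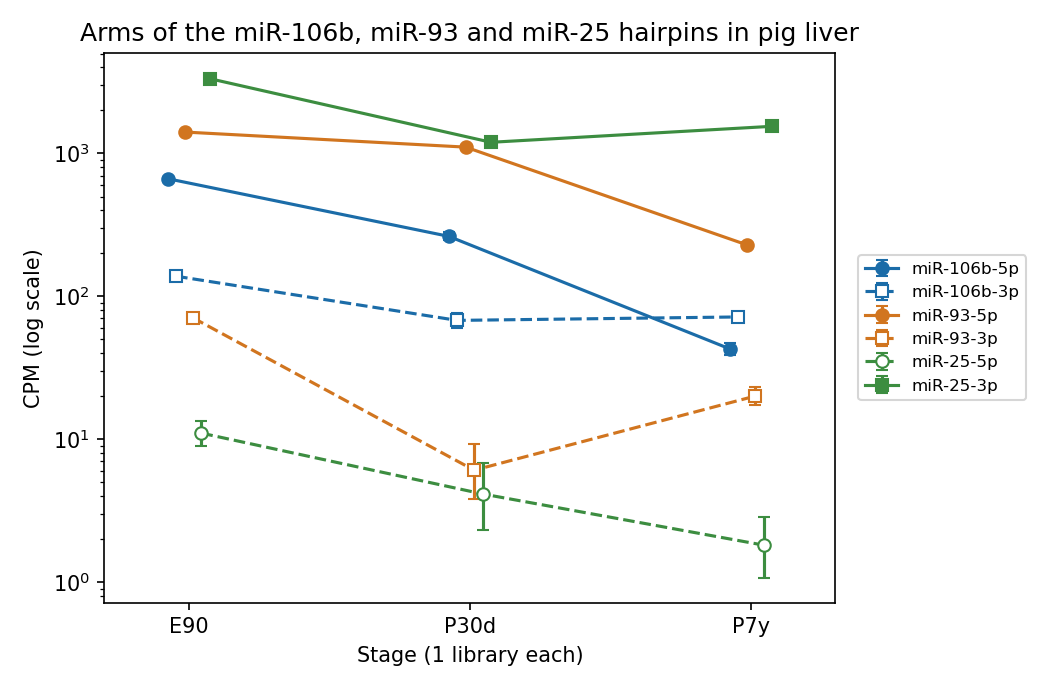
Levels of the 6 arms at E90, P30d and P7y, in CPM on a log axis; circles are 5p arms and squares 3p arms, filled with solid lines for the main arm of each hairpin and open with dashed lines for the other, and bars are exact 95% counting intervals of 1 library per stage. miR-106b-5p stood at 666, 263 and 42.8 CPM and crossed below miR-106b-3p at P7y, while miR-25-3p stayed the most abundant arm at each stage.

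miR-25-3p, the arm of the miR-92a seed family, was the most abundant arm of the cluster at every stage. It had 3340 CPM at E90, 1198 CPM at P30d and 1550 CPM at P7y, and ranked 37th of 778 miRNAs with a read, 63rd of 736 and 45th of 565. Its lowest value was at P30d rather than in the adult. Its log2 ratio was -1.48 for P30d over E90 (interval -1.53 to -1.43), called lower, and 0.37 for P7y over P30d (0.32 to 0.42), not called. For P7y over E90 it was -1.11 (-1.14 to -1.08), called lower under CPM, but it was 0.084 under TMM and -0.01 under DESeq2, so that direction rests on the scale. Under TMM and DESeq2 miR-25-3p was instead called higher at P7y than at P30d, at 1.40 and 1.49.

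miR-93-5p kept most of its level through weaning and was low only in the adult. It had 1413 CPM at E90, 1108 CPM at P30d and 229 CPM at P7y. The 2 earlier libraries lie close together and the adult one stands apart. The log2 ratio was -0.35 for P30d over E90 (-0.40 to -0.30), not called, -2.27 for P7y over P30d (-2.35 to -2.20) and -2.62 for P7y over E90 (-2.69 to -2.56), the last 2 called lower. They stayed called under TMM, at -1.25 and -1.43, and under DESeq2, at -1.16 and -1.53. Counting only copies of its representative read, miR-93-5p was called lower at P30d as well, at -1.25, as that read held 40.0% of the arm's reads at P30d against 74.5% at E90.

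miR-106b-5p had the widest range of the 3 main arms. It had 666 CPM at E90, 263 CPM at P30d and 42.8 CPM at P7y, or 6160, 953 and 425 reads. In rows with no place on the genome it had 285, 112 and 14.0 CPM, and without mismatched reads 195, 78.1 and 7.86 CPM. Each stage was below the one before it under all 3 counts. The log2 ratio was -1.34 for P30d over E90 (-1.44 to -1.24), -2.62 for P7y over P30d (-2.79 to -2.45) and -3.96 for P7y over E90 (-4.10 to -3.82), all called lower. All 3 stayed called under TMM, at -1.18, -1.59 and -2.77, under DESeq2, at -1.36, -1.50 and -2.86, without the rows placed on other genomic sequence, at -1.35, -2.996 and -4.35, and without mismatched reads, at -1.32, -3.31 and -4.63.

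The minor arms did not follow their partners from weaning to the adult. miR-106b-3p had 138 CPM at E90, 67.9 CPM at P30d and 71.8 CPM at P7y, and its log2 ratio for P7y over P30d was 0.08 (-0.13 to 0.30), not called, where its partner was at -2.62. Under TMM it was 1.11 and under DESeq2 1.20, both called higher. For P30d over E90 it was -1.03, called lower, but -0.86 and not called under TMM. For P7y over E90 it was -0.95, or 0.24 under TMM and 0.15 under DESeq2, and not called under any of them.

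miR-93-3p had 70.8 CPM at E90, 6.07 CPM at P30d and 20.1 CPM at P7y. Its lowest library is P30d, with 22 reads, 1 of which belongs to a fragment next to the loop. It was called lower at P30d than at E90, at -3.54 (-4.23 to -2.93), and higher at P7y than at P30d, at 1.72 (1.09 to 2.43). Its partner miR-93-5p was not called in the first of these pairs and was called lower in the second. The ratio for P7y over E90, -1.82, was called lower, but -0.63 under TMM and -0.72 under DESeq2 were not.

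miR-25-5p was the rarest arm. It had 11.0 CPM at E90, 4.14 CPM at P30d and 1.81 CPM at P7y, from 102, 15 and 18 reads. Its ratios were all called lower, at -1.41 for P30d over E90, -1.19 for P7y over P30d (-2.26 to -0.10) and -2.60 for P7y over E90, but the second was -0.16 under TMM and not called. At P30d the intervals of miR-93-3p, 3.81 to 9.19 CPM, and miR-25-5p, 2.32 to 6.83 CPM, overlapped, and these were the only neighbours in the order of levels whose intervals overlapped at any stage.

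Set against all miRNAs, the counts of called arms were as follows, with 6 arms counted each time and miR-25-5p outside the tested set because its mean was under 10 CPM. For P30d over E90, 5 arms were lower and 0 higher, where 35.1% of 319 tested miRNAs were lower and 33.2% higher. For P7y over P30d, 3 arms were lower and 1 higher, where 55.9% of 320 were lower and 12.5% higher. For P7y over E90, 5 arms were lower and 0 higher, where 50.8% of 319 were lower and 11.6% higher. Most tested miRNAs called between the adult and an earlier stage were thus lower in the adult under CPM. Under TMM, with the pairs in the same order, 4, 2 and 3 arms were lower and 0, 3 and 0 higher, while of the tested miRNAs 32.9%, 35.0% and 31.3% were lower and 35.4%, 26.9% and 28.8% higher.

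**Figure D2:**
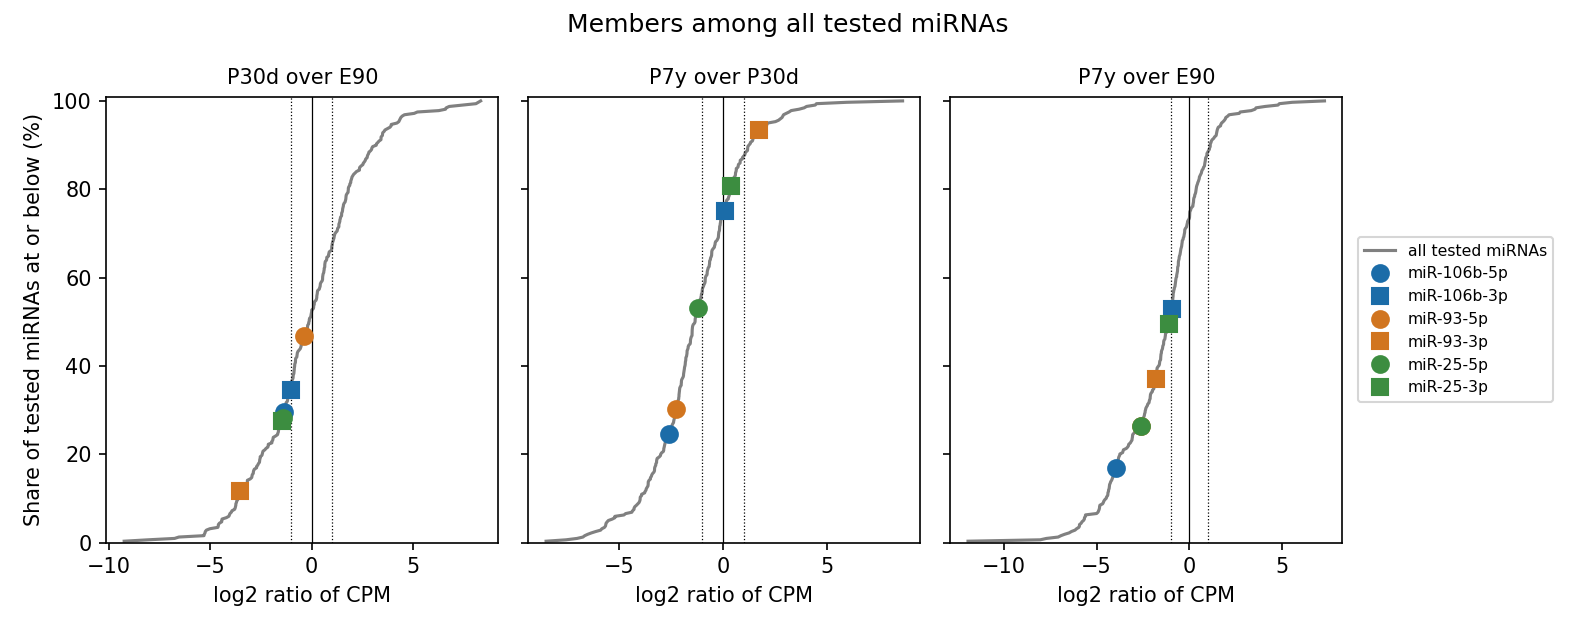
Share of tested miRNAs (319, 320 and 319 in the 3 pairs of stages) at or below each log2 ratio of CPM, grey line, with the 6 arms of the cluster marked at their own ratios; dotted lines stand at 2-fold. For P7y over P30d the arms spread from -2.62 (miR-106b-5p) to 1.72 (miR-93-3p), on both sides of the median of -1.34.

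The place of the arms within these distributions shows how unlike they were. The median log2 ratio of all tested miRNAs was -0.11 for P30d over E90, -1.34 for P7y over P30d and -1.09 for P7y over E90. For P7y over E90, 53 of 319 tested miRNAs had a lower ratio than miR-106b-5p, 83 a lower one than miR-93-5p and 157 a lower one than miR-25-3p. miR-25-3p was thus at the median of all miRNAs (-0.02 from it), and miR-106b-5p and miR-93-5p were 2.87 and 1.53 below it. For P7y over P30d, miR-25-3p stood 1.71 above the median, with 257 of 320 miRNAs below it, and miR-106b-5p and miR-93-5p stood 1.27 and 0.93 below the median. In other mammals the 3 hairpins are cut from a single primary transcript; here their mature levels differed in how far they changed between stages.

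The makeup of the cluster changed accordingly, and this needs no scale between libraries. miR-25 gave 59.4% of the cluster's reads in the embryo, 45.4% at weaning and 81.0% in the adult. miR-93 gave 26.3%, 42.1% and 13.0%. miR-106b gave 14.3%, 12.5% and 5.98%. Over all reads, the weaning library was the one with miR-25 and miR-93 nearly level, and the adult library the one in which miR-25 exceeded the other hairpins together by most. At weaning miR-93 gave 41.6% beside 51.3% for miR-25 without mismatched reads, and 35.5% beside 54.1% with representative reads only. Their near equality thus rests on the reads counted. With reads without a mismatch only, miR-106b gave 6.52%, 7.09% and 4.44%, and miR-25 gave 64.8%, 51.3% and 81.5%. With representative reads only, miR-106b gave 7.77%, 10.4% and 2.84%, and miR-25 gave 65.8%, 54.1% and 84.1%. How far the share of miR-106b differed between stages thus rested on the reads counted. The smallest share of miR-106b and the largest of miR-25 were in the adult each time.

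**Figure D3:**
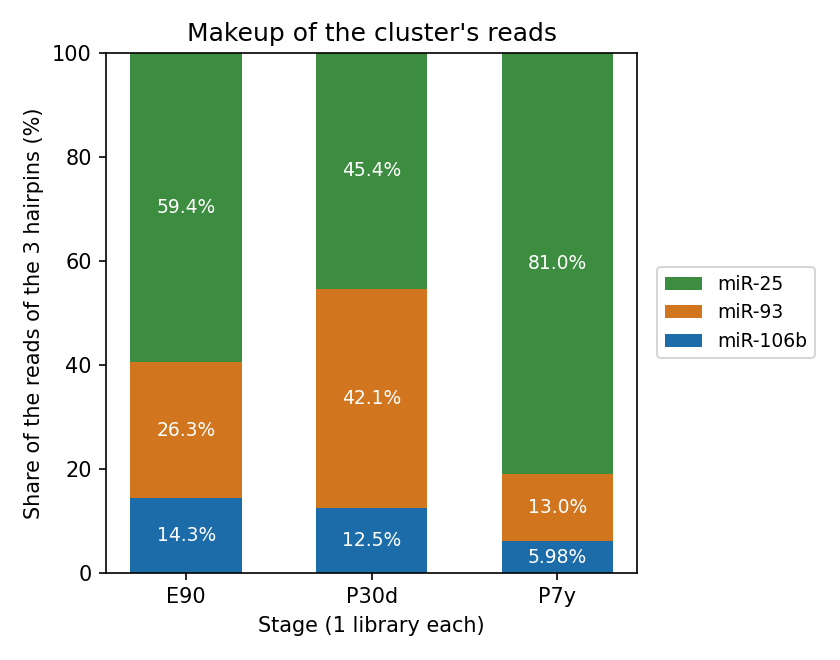
Share of the cluster's reads from each hairpin, in percent, at E90, P30d and P7y (52129, 9591 and 19005 reads of 1 library each). The part of miR-25 is largest at P7y with 81.0%, and that of miR-93 at P30d with 42.1%.

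As ratios, miR-25-3p stood to miR-93-5p at 2.36 in the embryo, 1.08 at weaning and 6.76 in the adult. The ratio was lower at P30d than at E90 by a log2 change of -1.13 (-1.20 to -1.06), and higher at P7y than at P30d by 2.64 (2.56 to 2.73) and than at E90 by 1.52 (1.45 to 1.59). The first of these falls short of 2-fold with mismatch-free reads, at -0.93, or representative reads alone, at -0.76, while both changes to the adult stayed called. Against miR-106b-5p, miR-25-3p stood at 5.01, 4.55 and 36.2 at E90, P30d and P7y. In rows with no place on the genome this ratio was 11.7, 10.6 and 111, and without mismatched reads 15.6, 12.1 and 164, so its size rests on the reads counted while its largest value was in the adult each time. For P30d over E90 this ratio changed by -0.14 in log2 (-0.25 to -0.03), under 2-fold, and it was higher at P7y than at P30d by 2.99 (2.82 to 3.17).

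Within the shared seed family, miR-93-5p stood to miR-106b-5p at 2.12 in the embryo, 4.21 at weaning and 5.35 in the adult. In rows with no place on the genome this ratio was 4.95, 9.91 and 16.4, and without mismatched reads 6.60, 9.80 and 25.7. The change for P7y over E90 was 1.34 (1.18 to 1.49) and called. The step for P30d over E90 was 0.99 (0.88 to 1.10) and that for P7y over P30d 0.35 (0.16 to 0.53), neither called. Which step held the change depended on the reads counted: with mismatch-free reads the steps were 0.57 and 1.39, and with representative reads alone 0.04 and 1.52.

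Arm balance, the share of a hairpin's reads that come from its 5p arm, changed its leading arm for miR-106b and for no other of the 3 hairpins. Its 5p arm held 82.8% of reads in the embryo (interval 81.9 to 83.7), 79.5% at weaning (77.1 to 81.7) and 37.4% in the adult (34.6 to 40.3). The 5p arm was ahead in the embryo and at weaning, and the 3p arm was ahead in the adult. In log2 of 5p over 3p reads the balance was 2.27, 1.95 and -0.74, so the lead of the 3p arm at P7y did not reach 2-fold. The change was -2.70 for P7y over P30d (-2.97 to -2.43) and -3.01 for P7y over E90 (-3.21 to -2.82), both called, and -0.32 for P30d over E90 (-0.54 to -0.09), not called.

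Because most miR-106b-5p reads were placed on other genomic sequence, the balance was also taken without them. Leaving them out also removes the row of the representative miR-106b-5p read, which equals the known cow sequence, and so lowers the 5p share. In rows with no place on the genome the 5p arm held 67.3% in the embryo, 62.2% at weaning and 16.3% in the adult, and among reads without a mismatch 63.4%, 59.5% and 11.2%. The 3p arm was then ahead by more than 2-fold in the adult, and the change for P7y over E90 was -3.40 and -3.78. With copies of the representative reads alone the 5p arm held 85.0%, 86.3% and 37.6%. Which arm was ahead at each stage was therefore the same under each of these counts.

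miR-93 kept its 5p arm ahead throughout, with a peak at weaning. The 5p arm held 95.2% of reads in the embryo (94.9 to 95.6), 99.5% at weaning (99.2 to 99.7) and 92.0% in the adult (90.8 to 93.0). In log2 the balance was 4.32, 7.48 and 3.51, the middle value resting on 22 reads of miR-93-3p. It was higher at P30d than at E90 by 3.16 (2.58 to 3.88) and lower at P7y than at P30d by a change of -3.97 (-4.71 to -3.35), both called, whereas P7y over E90 gave -0.81 (-1.05 to -0.56), not called.

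miR-25 had the most one-sided balance, with its 3p arm at 99.7% of reads in the embryo, 99.7% at weaning and 99.9% in the adult. In log2 of 5p over 3p the balance was -8.23, -8.13 and -9.70. The change for P7y over P30d was -1.57 (-2.63 to -0.47) and for P7y over E90 -1.46 (-2.31 to -0.76), both called and both resting on 18 reads of miR-25-5p at P7y. All 3 hairpins thus had a smaller share of 5p reads at P7y than at P30d.

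**Figure D4:**
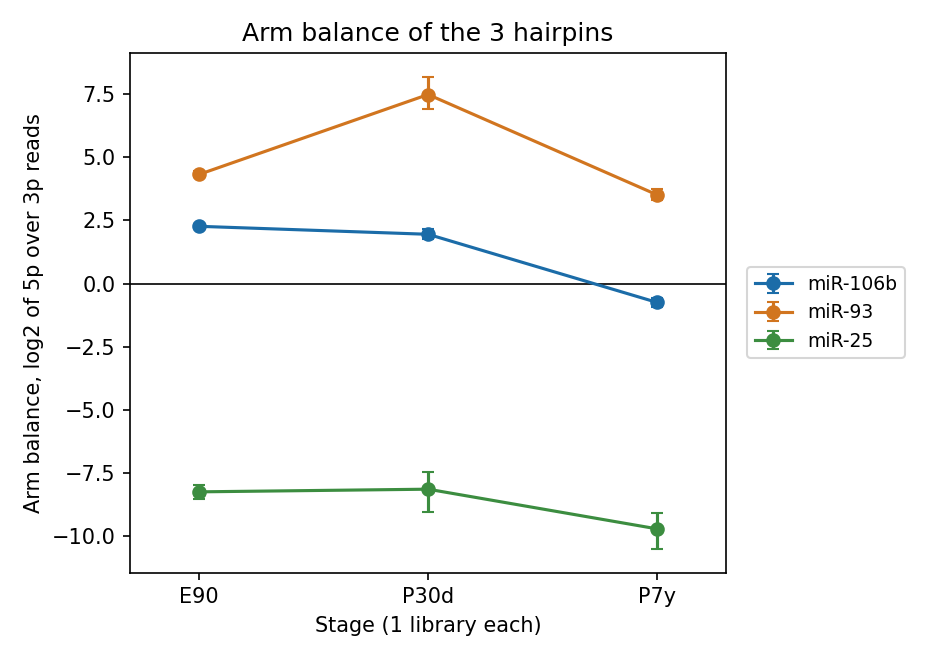
Arm balance of the 3 hairpins, as log2 of 5p over 3p reads (0.5 was first added to both), at E90, P30d and P7y; points above the line at 0 have more 5p reads, and bars are exact 95% counting intervals. miR-106b crosses the line at P7y (-0.74), miR-93 peaks at P30d (7.48) and miR-25 stays below -8.

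Changes of arm balance were common in these libraries. Of 195 hairpins that had 50 reads or more at every stage, the balance was called higher in 20.5% and lower in 30.8% for P30d over E90, in 28.2% and 27.2% for P7y over P30d, and in 15.4% and 23.1% for P7y over E90. The median absolute change was 1.97 for P30d over E90, 2.05 for P7y over P30d and 1.11 for P7y over E90, so the P30d library stood apart from the other two in arm balance over all hairpins. The peak of miR-93 at P30d lies in that library, and the part of the library in it was not tested. The change of miR-106b is between P7y and both earlier stages. Of the 195 hairpins, 15, or 7.69%, had a different arm ahead in at least 1 stage, and miR-106b was one of them.

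The representative reads of each arm started at the same base in all 3 libraries, for 6 of 6 arms, and differed only in length. For miR-93-5p the representative read was 23 nt in the embryo, 21 nt at weaning and 23 nt in the adult, so the weaning library's lacked the last bases. For miR-106b-3p it was 22, 20 and 21 nt, while for miR-25-3p it was 22 nt and for miR-106b-5p 21 nt in every library. Of 243 arms that had 50 reads or more at every stage, the representative read was shorter at P30d than at E90 in 44, longer in 34 and of the same length in 165. The seed of the representative read was thus the same in every library for each arm. Where the other reads of an arm start was not examined.

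The relatives outside the cluster show how much of each seed the cluster supplied. These reads differ from the members in the bases after the seed, which is in capitals.
miR-20a-5p: tAAAGTGCttatagtgcaggtag
miR-17-5p: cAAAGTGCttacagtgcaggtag
miR-92a-3p: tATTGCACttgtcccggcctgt
miR-363-3p: aATTGCACggtatccatctgta
miR-106b-5p and miR-20a-5p have the same base at 18 of 21 positions, miR-93-5p and miR-17-5p at 19 of 23, and miR-25-3p and miR-92a-3p at 18 of 22.

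Of the miRNAs with the seed of miR-106b-5p and miR-93-5p, the cluster gave the larger part at weaning only. The 6 miRNAs with that seed summed to 18220 CPM at E90, 2329 CPM at P30d and 2019 CPM at P7y. The 2 cluster members held 11.4% of these reads in the embryo (11.3 to 11.6), 58.9% at weaning (57.8 to 59.9) and 13.5% in the adult (13.0 to 14.0). These shares are over all reads and were not recounted without mismatched reads or placed rows. At P30d 30.9% of the miR-93-5p reads carried a mismatch, against 9.01% at E90, and 70.3% of the miR-106b-5p reads did. Most of the remaining reads were those of miR-20a-5p of the miR-17-92 cluster, which had 13856 CPM at E90, 592 CPM at P30d and 1636 CPM at P7y, while miR-93-5p was at 1108 CPM in the library where miR-20a-5p was lowest.

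The remaining relatives of that seed were called lower under CPM at each later stage, like miR-106b-5p. For P7y over P30d, miR-17-5p was at -1.86 and miR-106a-5p at -1.53. Adding the 1.03 of TMM or the 1.12 of DESeq2 puts both short of 2-fold, whereas miR-106b-5p stayed called under either scaling. miR-17-5p had 1122 CPM at E90, 205 CPM at P30d and 56.7 CPM at P7y, and miR-106a-5p of the X-linked paralogous cluster 1131, 154 and 53.4 CPM. At E90 these 2 names have the same representative read, so they cannot be told apart there. By its copies over all libraries together, a shared read made up most of the reads of both names. Their levels at P30d and P7y may therefore not be separate either. The counts of paralogous arms below still take them as 2 arms. miR-20b-5p was rare, with 31.4, 6.35 and 0.504 CPM from 290, 23 and 5 reads.

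miR-25-3p was a minor source of its seed at every stage. The 5 miRNAs read with that seed summed to 18852 CPM at E90, 12613 CPM at P30d and 10994 CPM at P7y, and miR-25-3p held 17.7%, 9.50% and 14.1% of these reads. miR-92a-3p, the most abundant, had 14800, 10771 and 9267 CPM, and none of its ratios was called. The others moved in different ways: miR-363-3p had 599, 305 and 91.2 CPM, miR-32-5p 85.1, 228 and 23.3 CPM, and miR-92b-3p 28.3, 110 and 62.4 CPM. No row is named miR-367-3p, another miRNA of this family.

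**Figure D5:**
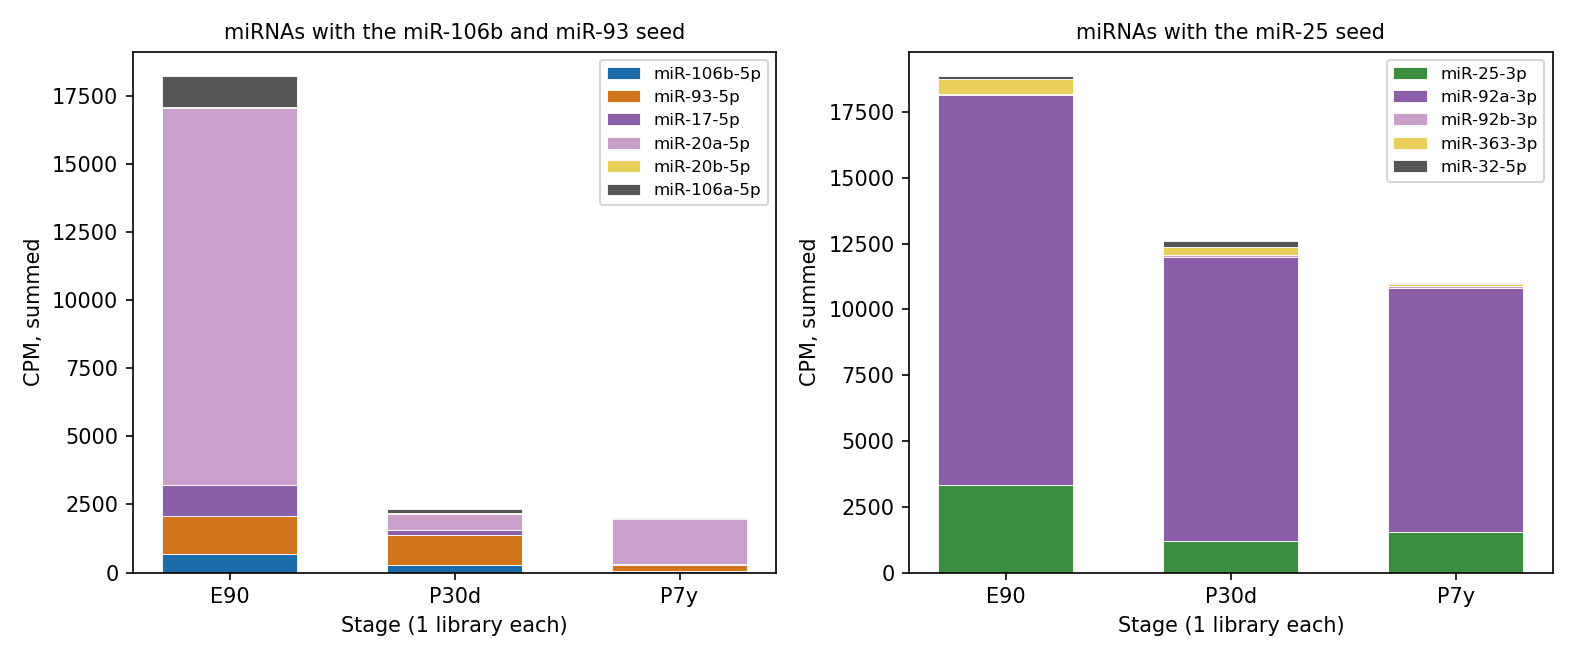
Summed CPM of the miRNAs that share the seed of miR-106b-5p and miR-93-5p (left) and of miR-25-3p (right) at E90, P30d and P7y, 1 library each; coloured parts at the bottom are the cluster's own members. The left bars reach 18220, 2329 and 2019 CPM at the 3 stages, and the cluster's part is largest at P30d.

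The paralogous clusters miR-17-92 and miR-106a-363, which arose with this one from a common ancestor and are likewise linked to proliferation, had 19 arms with a row, of which 10 reached a mean of 10 CPM. For P30d over E90, 6 of the 10 were lower and 0 higher, beside 35.1% and 33.2% of all tested miRNAs, with a median log2 ratio of -1.71 against -0.11 over all. For P7y over P30d, 7 were lower and 1, miR-20a-5p, was higher, beside 55.9% and 12.5% of all, with a median of -1.65 against -1.34. Under TMM and under DESeq2 only 3 of the 10 were lower in this pair, beside 35.0% and 33.4% of all tested miRNAs. For P7y over E90, 9 were lower and 0 higher, beside 50.8% and 11.6% of all, with a median of -3.07 against -1.09. Under either scaling 8 were lower, beside 31.3% (TMM) and 32.9% (DESeq2) of all. For that pair miR-106b-5p, at -3.96, stood below the median of the paralogous arms, and miR-93-5p at -2.62 and miR-25-3p at -1.11 stood above it. A filter on the mean can pass arms that are abundant at E90 alone, so these counts are a description.

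The miRNAs with the most similar profiles differed for each main arm, as measured by the distance of centred log2 CPM over the 3 libraries among 176 candidates with a mean of 100 CPM or more. For miR-93-5p the nearest was miR-15a-5p at a distance of 0.14, with 281 CPM at E90, 235 CPM at P30d and 52.5 CPM at P7y. It was followed by miR-204-5p at 0.45 and miR-363-3p at 0.47. For miR-25-3p the nearest were miR-716a-3p at 0.11, miR-194a-5p at 0.34 and miR-340-5p at 0.35. For miR-106b-5p they were miR-450c-5p at 0.55, miR-221-3p at 0.61 and miR-381-3p at 0.65. With 3 libraries many miRNAs lie close by any measure, and no list of neighbours held another cluster member because members were left out of the candidates.

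The labelled tissue and its cell types were checked through marker miRNAs. The hepatocyte miRNAs summed to 313403 CPM at E90, 364934 CPM at P30d and 288372 CPM at P7y, all 3 read in each library. They did not move together: miR-122-5p had 128017, 213802 and 37870 CPM, miR-192-5p 109467, 109311 and 154836 CPM, and miR-148a-3p 75920.0, 41821 and 95666 CPM.

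The erythroid markers, of which 4 of 4 were read in every library, summed to 7234, 3033 and 1819 CPM at E90, P30d and P7y, beside 5639, 2647 and 1916 CPM for the cluster. For P30d over E90, 3 of the 4 were lower and 0 higher, beside 35.1% and 33.2% of all tested miRNAs. The marker not called was miR-144-3p, with 1195 CPM at P30d against 978 CPM at E90. For P7y over P30d only 1 of the 4, miR-144-3p, was lower, beside 55.9% of all tested. The sum was at -0.74 in this pair, not called, and at 0.29 under TMM, so its direction rests on the scale, as does that of the cluster sum. Between P7y and E90, 4 of the 4 were lower at P7y under CPM, beside 50.8% of all tested. The sum was at -1.99, or -0.80 and not called under TMM. Adding the 1.19 of TMM puts miR-451-5p (-1.69) and miR-486-5p (-1.50) short of 2-fold in this pair. Both arms of miR-144, at -4.13 (5p) and -2.99 (3p), stay past it. Fetal liver is a site of blood formation, and the part of red cell precursors in the cluster's levels was not tested.

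Markers of other cell types did not move as groups. The leukocyte markers, 5 of 5 read in every library, summed to 962, 3446 and 944 CPM. The high P30d value is that of miR-142-5p, at 374, 2956 and 609 CPM, while miR-223-3p was lowest there, at 296, 50.2 and 83.1 CPM. The endothelial markers, 2 of 2, summed to 13297, 11884 and 13568 CPM, with miR-126-3p lowest and miR-126-5p highest at P30d. The mesenchymal markers, 4 of 4, summed to 55757, 59484 and 110028 CPM. Most of the P7y sum was miR-143-3p, at 51123, 17730.4 and 102623 CPM, whereas miR-199a-5p had 3349, 40212 and 2539 CPM and so was highest at P30d. The part of these cell types in the cluster's levels was not tested.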

How the data were processed

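Each library has 1 deposited table, whose rows are arms of hairpins. Per the file headers, the authors matched reads to miRBase hairpins of pig and other mammals, sought places for hairpins and for reads in the genome of the pig, and sorted rows into groups by the outcome. The submitters' processing notes name Sscrofa10.2; the sources used here do not give the aligner, the mismatches allowed or the miRBase release. Per the labels' protocols, fragments of 14 to 40 nt were sequenced. The deposited reads of an arm are expected counts: the authors divided a read of several hairpins among them. The deposited copies of the representative read and reads per hairpin are counts.

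Expected counts of known miRNAs were summed per arm, rounded to whole numbers and divided by the library's 9243601 (E90), 3622993 (P30d) or 9920207 (P7y) known reads, per 1000000 (CPM). In rows placed on genomic sequence the arm was taken from the known name or the place of the mature sequence in the known hairpin. Ratios have exact conditional binomial 95% intervals, changes of ratios exact conditional odds ratio intervals, and shares exact Clopper-Pearson intervals; a call needs 2-fold and an interval excluding no change. Tested miRNAs had a mean of 10 CPM or more; hairpins entered the arm background with 50 reads per library; 0.5 was added to each arm. With 1 library per stage there is no replicate spread and no p-value. The members, marker lists, relatives and naming rule (both arms of the 3 hairpins, seed relatives, paralogous clusters, 3 nearest profiles of each main arm) were chosen with earlier results of these data known.

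Alternatives were TMM (edgeR 4.0.16), DESeq2 1.42.0 size factors, a total that leaves out each library's 5 most abundant miRNAs, the whole table's total, reads without a mismatch, representative reads only, names with a shared representative read merged, 3 reads added per arm, no filter and a filter at 100 CPM; rows with no place on the genome, the arm from the tables' own column, and the scalings of the paralogous clusters and of the erythroid sum, were chosen after seeing the data. The interval calculation was tested on simulated data. R was version 4.3.3, Python 3.11.15, SciPy 1.17.1, NumPy 2.4.6, pandas 2.3.3 and matplotlib 3.10.9.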

Additional observations from a re-analysis of the deposited data

Results flagged for a closer look

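Outside the rows counted for the cluster, a predicted hairpin without a known miRNA has a read whose first 16 bases are those of miR-25-3p. It had 14 reads at E90 and 18 reads at P7y, above the 3 reads that a count of 0 allows. The authors placed it on the minus strand of chromosome 1 between 176858672 and 176858930 (Sscrofa10.2). At P30d the same place holds a row named miR-25, with 24 reads, which is counted in miR-25-3p. miR-25-3p itself had 30870 reads at E90 and 15376 at P7y, to which the 14 and 18 reads were not added.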

How the results depend on the processing

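All values are log2 unless they count miRNAs. No paired analysis was possible because each stage has 1 library, and for the same reason no replicate could be left out. Known pig hairpins alone gave no value, since no row of the cluster has one. The summed cluster lost its call under TMM at -0.93 for P30d over E90, and at -0.37 (TMM) and -0.46 (DESeq2) for P7y over E90. miR-25-3p for P7y over E90 turned to 0.084 under TMM. The change of miR-25-3p over miR-93-5p for P30d over E90 fell short at -0.93 without mismatched reads and at -0.76 with representative reads only. The change of miR-93-5p over miR-106b-5p became called at 1.002 for P30d over E90 in rows with no place on the genome, and for P7y over P30d at 1.39 without mismatched reads and 1.52 with representative reads only. The miR-93 arm balance for P7y over E90 became called at -1.01 with representative reads only. The uncalled change of the summed cluster for P7y over P30d also turned, to 0.16 with representative reads only. Among 243 values of single arms or stages under the alternatives, 13 lost and 7 gained a call. The cause was not tested. Merging names changed no member, and no other alternative moved a call on the cluster sum, a ratio between members or an arm balance between stages.

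Counts of all miRNAs called moved with the genes tested and the scale. For P30d over E90, 106 were higher and 112 lower, against 187 and 196 with no filter and 59 and 58 at a mean of 100 CPM. For P7y over P30d, 40 and 179 became 86 and 112 under TMM, 88 and 107 under DESeq2 and 63 and 330 with no filter, with 94 lower at 100 CPM. For P7y over E90, 37 and 162 became 92 and 100 under TMM, 89 and 105 under DESeq2, 87 and 337 with no filter and 21 and 81 at 100 CPM. Depth limits miR-25-5p and, at P30d, miR-93-3p most, at 15 and 22 reads there.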
